A study of Mus musculus with 69 samples.

Results

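Ccn1 (also called Cyr61) and Ccn2 (also called Ctgf) encode secreted CCN proteins. They were followed here in the hearts of mice exposed to cyanide, through every probe set of the deposited table that is annotated to either gene alone. There were 3 of these among 45141 probe sets, and they stand for 2 of the 12432 named genes tested. Ccn1 has the probe sets 1416039_PM_x_at and 1438133_PM_a_at, and Ccn2 has 1416953_PM_at. The first Ccn1 probe set, which had the higher mean signal, is the one given below unless the second is named. All 3 passed the filter on low signals.

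CCN proteins are matricellular: they are released into the extracellular matrix, where they signal through integrins and heparan sulphate proteoglycans rather than build the scaffold. Both genes are transcribed rapidly after growth factors, mechanical load or ischaemia, and the transcription factors SRF and TEAD, the latter with its co-activator YAP, are known to act on them. Ccn2 is in addition a classical target of TGF-beta and is often used as a marker of fibrosis in the heart. Cyanide inhibits the terminal oxidase of the mitochondrial respiratory chain, so that cells cannot use the oxygen they receive.

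The animals were adult male CD-1 mice of 20 to 35 g that were awake during exposure, and no group carried a genetic change. In the injection experiment mice received 8.0 mg/kg potassium cyanide (KCN) under the skin or an equal volume of saline, and hearts were taken at 1, 2, 4, 8 or 24 h. In the inhalation experiment mice breathed 327 ppm hydrogen cyanide (HCN) or air through the nose only, and hearts were taken at 1, 2, 4 or 24 h. Each of the 18 groups had 4 arrays, except saline at 2 h and at 4 h and KCN at 4 h, which had 3. The labels call the arrays of a group biological replicates, and each was treated as 1 mouse. The SE of a change and its p-value in limma rest on 1 spread per probe set, pooled within groups over all 18 groups. They do not rest on the compared groups alone. The number of arrays in a group limits the precision.

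The deposited signals are on the log2 scale and appear to have been normalized as 2 sets, since the median 95th percentile was 9.24 on the 37 injection arrays and 9.52 on the 32 inhalation arrays. Levels are therefore compared only within a route. Heart identity was plain on every array: Tnnt2, the cardiac troponin T gene, and Myl2, a ventricular myosin light chain gene, read 12.6 to 13.3 and 13.3 to 13.7, while Myh6 has no probe set in the annotation used. In whole hearts, fewer cells of a type and less RNA per cell cannot be told apart. Several groups also differed in transcripts of other tissue and in a measure of RNA quality, and values for several of these differences are given with the results.

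The sequence upstream of Ccn1 is shown because the lists described further on hold the targets of factors whose sites can be searched in it. It is the window of 250 bases before the transcription start in RefSeq (GRCm38.p6, chr3:145649986-145650235, minus strand), written 5′ to 3′ on the strand of the gene. Capitals mark the matches to a TEAD motif, to a partial cAMP response element (TGACG) and to a TATA box.
Ccn1 upstream: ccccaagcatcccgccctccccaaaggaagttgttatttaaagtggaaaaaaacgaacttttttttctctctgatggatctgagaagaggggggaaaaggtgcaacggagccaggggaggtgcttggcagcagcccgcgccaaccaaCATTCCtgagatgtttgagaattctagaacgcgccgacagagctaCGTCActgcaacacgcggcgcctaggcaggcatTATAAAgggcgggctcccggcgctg
All motifs were searched on both strands, here and in the windows counted below. The TEAD motif GGAATG matched on the opposite strand, so it reads CATTCC here, 103 to 98 bases before the start. TGACG also matched on the opposite strand, as CGTCA, 58 to 54 bases before the start. TATAAA matched on the strand of the gene, 25 to 20 bases before the start. Of 32851 windows of this length before mouse genes, 12.6% hold the TEAD motif, 17.8% TGACG and 12.4% TATAAA. The full element TGACGTCA, which contains TGACG, is in 1.55% of windows, the AP-1 motif TGANTCA in 6.75% and the CArG box bound by SRF in 1.47%. None of these last 3 has a match in the Ccn1 window. A match is only a run of letters, the absence of one says only that those letters are not in this window, and the arrays do not measure binding.

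Both genes gave signals in the upper part of the range. Averaged over the arrays of a route, Ccn1 was brighter than 87.4% of all probe sets in the injection experiment and than 90.5% in the inhalation experiment, and Ccn2 than 97.5% and 98.3%. These ranks describe probe brightness and do not compare the amounts of the RNAs.

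Ccn1 rose at 1 h after cyanide by either route, and at 2 h it was called after HCN and not after KCN. The 4 KCN arrays of 1 h read 8.95, 9.73, 10.20 and 8.45, against 6.61, 6.52, 6.95 and 7.10 after saline. The KCN values were spread widely, but the lowest was 1.34 above the highest saline value. The difference was 2.53 ± 0.31 on the log2 scale (SE, 4 arrays in each group), or 5.79-fold, with an adjusted p of 3.44e-08 in limma. In this comparison 4.09% of all tested probe sets were called at an adjusted p of 0.05.

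Transcripts of other tissue and RNA quality moved with this comparison. The mean log2 signal of Scgb1a1 and Bpifa1, both secreted by airway epithelium, was 11.1 to 11.6 on the KCN arrays of 1 h and 2.71 to 2.98 on the saline arrays. The summed linear signal of 3 adipocyte markers was 548.1 to 2270 after KCN and 90.3 to 377.5 after saline. The log2 ratio of actin 3′ to 5′ signal, which rises when RNA is degraded or labelled short, was 0.48 ± 0.08 after KCN and 0.84 ± 0.17 after saline (SD, n = 4 each). The Ccn1 change was 2.62 with the airway mean as a covariate and 2.39 when the actin ratio was the covariate. Neither the airway mean nor the actin ratio overlapped between these groups, so these fits cannot separate either of them from KCN. The part of the adipocyte transcripts in the Ccn1 change was not tested.

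After HCN the 1 h values of Ccn1 lay close together, at 10.60, 10.56, 10.61 and 10.64, against 7.41, 7.91, 7.37 and 7.82 in air. No arrays overlapped, and the gap between the groups was 2.65. Limma gave a change of 2.97 ± 0.31 (SE, 4 arrays in each group), or 7.86-fold (adjusted p = 2.18e-10), in a comparison in which 2.68% of probe sets were called. The second Ccn1 probe set gave 2.47 ± 0.31 after KCN (adjusted p = 7.45e-08) and 3.37 ± 0.31 after HCN (adjusted p = 5.03e-12). Both Ccn1 probe sets thus rose at 1 h by both routes, and across arrays they correlated at 0.957 (37 injection arrays) and 0.979 (32 inhalation arrays). A probe set whose name ends in x_at may hold probes that match other transcripts. The second probe set is not of that kind.

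**Figure D1:**
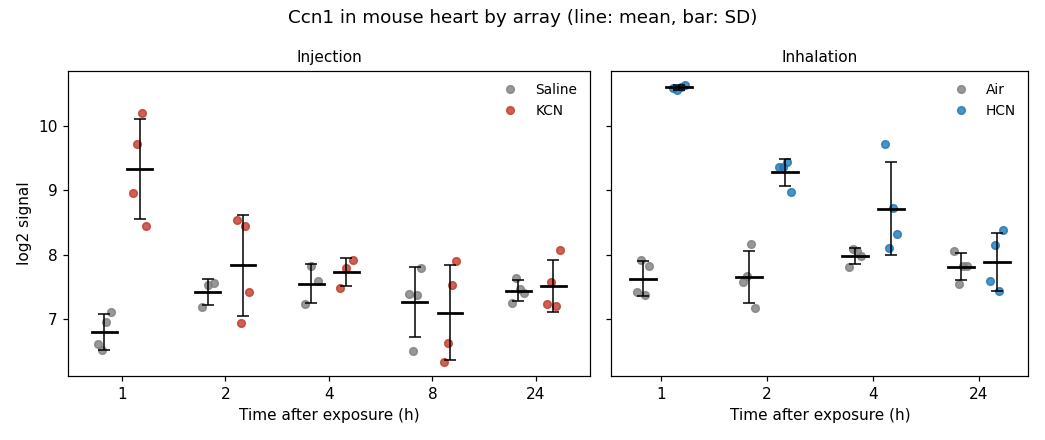
Ccn1 (1416039_PM_x_at) on each array, as log2 signal against hours after exposure (time points evenly spaced), for saline and KCN on the left and air and HCN on the right; points are arrays, lines are group means and bars are SD. The 1 h cyanide arrays lie above every 1 h control array by both routes, and the 4 HCN arrays of 1 h lie between 10.56 and 10.64.

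At 2 h the KCN arrays split. Ccn1 read 8.54, 6.93, 8.44 and 7.42 on the KCN arrays and 7.18, 7.52 and 7.55 on the saline arrays. So 2 of the 4 KCN arrays were above every saline array and the others were at or below the saline level. The difference of 0.41 ± 0.33 did not pass the test (SE, 4 KCN and 3 saline arrays, limma, adjusted p = 0.537), where 6.59% of probe sets did. Airway transcripts moved with this split: the mean log2 signal of Scgb1a1 and Bpifa1 was 3.05 and 2.88 on the KCN arrays with high Ccn1 and 12.1 and 11.8 on the others. Their part in the split was not tested.

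At the same time after HCN, Ccn1 read 9.36, 9.36, 9.44 and 8.97, against 7.57, 7.67, 8.16 and 7.18 in air. All HCN arrays were above all air arrays. The change was 1.64 ± 0.31, or 3.12-fold (SE, 4 arrays in each group, limma, adjusted p = 6.27e-05), and the second probe set gave 1.17 ± 0.31 (adjusted p = 0.00376). Of the 9 cyanide comparisons this one had the highest share of called probe sets, 25.3%.

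By 4 h the HCN arrays read 9.72, 8.11, 8.73 and 8.32, and the air arrays 7.81, 8.08, 8.05 and 7.98. All 4 HCN arrays were still above all air arrays, although by only 0.03 at the closest. The difference of 0.74 ± 0.31 did not pass the test (SE, 4 arrays in each group, limma, adjusted p = 0.147), in a comparison that called 7.35% of probe sets. It was 0.40 without the first HCN array (adjusted p = 0.548), which was the highest. The airway mean was 12.6 and 12.2 on arrays 1 and 3 after HCN, where Ccn1 was highest, and 2.91 and 3.18 on the others, and its part in the spread was not tested. Ccn1 did not split in this way at the earlier times after HCN. At 1 h the airway mean was 2.90 on array 4 and 10.8 to 12.2 on the others, while all read 10.56 to 10.64 for Ccn1. At 2 h it was 3.11 on array 1 and 11.95 on array 2, and both read 9.36 for Ccn1. After KCN at 4 h Ccn1 read 7.48, 7.79 and 7.92, within 0.18 ± 0.36 of the saline arrays at 7.23, 7.82 and 7.59 (SE, 3 arrays in each group, adjusted p = 0.853, 2.26% of probe sets called).

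The later groups overlapped by both routes. At 8 h Ccn1 read 6.33, 6.63, 7.53 and 7.90 after KCN, against 7.39, 6.50, 7.37 and 7.79 after saline, a difference of -0.16 ± 0.31 (SE, 4 arrays in each group, limma, adjusted p = 0.893, 0.336% of probe sets called). At 24 h the KCN arrays read 7.23, 7.58, 7.20 and 8.07 and the saline arrays 7.25, 7.64, 7.47 and 7.40. The HCN arrays read 7.59, 8.15, 7.43 and 8.38 at that time and the air arrays 8.06, 7.54, 7.82 and 7.82. Neither difference at 24 h passed the test: it was 0.08 ± 0.31 for KCN (95% interval -0.54 to 0.70) and 0.07 ± 0.31 for HCN (95% interval -0.54 to 0.69), both with an adjusted p of 0.91 in limma. On the second probe set the KCN difference at 24 h was 0.48 ± 0.31 (adjusted p = 0.348). Among all probe sets, 11.9% were called at 24 h after KCN and 14.3% after HCN.

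Ccn2 passed the test later than Ccn1. At 1 h after KCN it read 11.06, 11.44, 11.40 and 10.86, against 10.17, 10.54, 11.05 and 10.52 after saline. The groups overlapped through 1 saline array, the third, which read 11.05. The difference of 0.62 ± 0.21 did not pass the test (SE, 4 arrays in each group, limma, adjusted p = 0.0809). Without that saline array it was 0.78 and passed (adjusted p = 0.0368).

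At 2 h after KCN, Ccn2 read 11.12, 10.70, 11.00 and 10.85, against 9.42, 9.70 and 9.70 after saline. The KCN arrays lay at least 1.00 above every saline array. Ccn2 rose by 1.31 ± 0.23, or 2.48-fold (SE, 4 KCN and 3 saline arrays, limma, adjusted p = 0.000128). Arrays 1 and 3 after KCN, those with low airway transcripts and high Ccn1, also had the higher Ccn2 values, but here the other two lay above every saline array as well. The level after KCN was 11.19 ± 0.28 at 1 h and 10.92 ± 0.18 at 2 h (SD, 4 arrays each), whereas the saline mean was 10.57 ± 0.36 at 1 h (SD, n = 4) and 9.61 ± 0.16 at 2 h (SD, n = 3). The larger difference at 2 h went with a lower control level and not with a higher level after KCN.

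The 4 h comparison after KCN turned on 1 array. Ccn2 read 9.66, 11.30 and 9.78 after KCN, and 9.61, 9.52 and 9.68 after saline. The second KCN array was far above all others, and the other two were near the saline values. The difference was 0.64 ± 0.24 (SE, 3 arrays in each group, limma, adjusted p = 0.149), and 0.11 without that array (adjusted p = 0.903). When only these groups were fitted the SE was 0.34 (limma, adjusted p = 0.46). Its airway mean was 12.2, against 8.95 and 11.2 on the other KCN arrays and 2.92 to 3.13 on the saline arrays, and the part of these transcripts in the value was not tested.

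In the inhalation experiment, Ccn2 at 1 h read 11.79, 11.78, 11.47 and 11.74 after HCN and 11.31, 11.19, 11.43 and 10.97 in air. All HCN arrays were above all air arrays, by 0.04 at the closest. The difference of 0.47 ± 0.21 did not pass the test (SE, 4 arrays in each group, limma, adjusted p = 0.272), though it did when these 2 groups were fitted alone (adjusted p = 0.0434).

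At 2 h and 4 h after HCN the groups were clearly apart. At 2 h Ccn2 read 11.85, 11.83, 11.59 and 11.57, against 10.77, 10.40, 10.53 and 10.65 in air, a rise of 1.12 ± 0.21, or 2.18-fold (SE, 4 arrays in each group, limma, adjusted p = 6.08e-05). At 4 h it read 11.79, 11.02, 11.76 and 11.13, against 10.49, 10.41, 10.39 and 10.12. The rise was 1.07 ± 0.21, or 2.11-fold (SE, 4 arrays in each group, adjusted p = 0.00037). At 4 h the HCN arrays fell into a higher and a lower pair, and both pairs were above every air array. The higher pair was again arrays 1 and 3, those with high airway transcripts.

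Ccn2 was not called at the later times. After 8 h the KCN arrays read 9.10, 9.28, 9.98 and 9.86 and the saline arrays 9.63, 9.79, 10.04 and 9.63, a difference of -0.22 ± 0.21 (SE, 4 arrays in each group, limma, adjusted p = 0.746). At 24 h the KCN arrays lay together at 9.81, 9.77, 9.82 and 9.87, inside the saline range of 9.76, 9.68, 10.11 and 9.79. The HCN arrays of 24 h read 10.15, 9.73, 10.38 and 9.62, and the air arrays 10.53, 10.42, 9.83 and 9.93. The 24 h differences were -0.02 ± 0.21 for KCN (95% interval -0.44 to 0.40, adjusted p = 0.968) and -0.21 ± 0.21 for HCN (95% interval -0.63 to 0.21, adjusted p = 0.572).

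**Figure D2:**
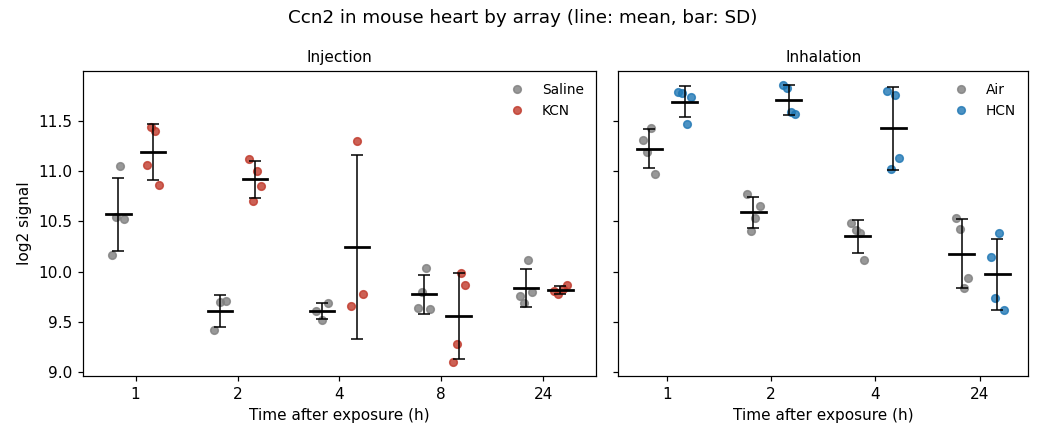
Ccn2 (1416953_PM_at) on each array, as log2 signal against hours after exposure (time points evenly spaced), for saline and KCN on the left and air and HCN on the right; points are arrays, lines are group means and bars are SD. The control means are highest at 1 h, at 10.57 in saline and 11.22 in air, and 1 KCN array of 4 h stands at 11.30.

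Ccn2 also differed between the control hearts of different times. The saline mean was 10.57 at 1 h and between 9.61 and 9.84 later, and the air mean was 11.22 at 1 h and between 10.18 and 10.59 later. F tests over the control groups in limma gave adjusted p = 0.00113 for saline (18 arrays) and 0.00119 for air (16 arrays). Such changes were common, since 38.4% of probe sets were called over the saline groups and 16.8% over the air groups. Ccn1 was not called over time in either control series: its mean ran from 6.80 at 1 h to 7.55 at 4 h in saline (adjusted p = 0.251) and from 7.63 at 1 h to 7.98 at 4 h in air (adjusted p = 0.752).

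In the order of group means, few neighbours stood apart. Ccn1 in the injection experiment was highest in KCN 1 h at 9.33, then KCN 2 h at 7.83 and KCN 4 h at 7.73, and lowest in saline 1 h at 6.80. Among the 10 injection groups, 0 of 9 neighbouring pairs had arrays that did not overlap, though on the second probe set 1 did not, KCN 1 h over KCN 24 h. Over all tested probe sets, 1.49% of neighbouring pairs in the injection experiment and 1.87% in the inhalation experiment did not overlap. At least 1 such pair was found in 12.4% of probe sets in the injection experiment and in 12.1% in the inhalation experiment. In the inhalation experiment the order ran from HCN 1 h at 10.60 through HCN 2 h at 9.28 and HCN 4 h at 8.72 to the air groups and HCN 24 h, all between 7.63 and 7.98. There, 2 of 7 neighbouring pairs were apart, HCN 1 h over HCN 2 h and HCN 4 h over air 4 h.

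For Ccn2 the injection order began with KCN 1 h at 11.19, KCN 2 h at 10.92, saline 1 h at 10.57 and KCN 4 h at 10.25, and 0 of 9 neighbouring pairs were apart. In the inhalation experiment HCN 2 h at 11.71 and HCN 1 h at 11.69 overlapped, followed by HCN 4 h at 11.43 and air 1 h at 11.22. Of the 7 neighbouring pairs, 1 was apart, air 1 h over air 2 h.

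The cyanide effect at 1 h was tested directly against the mean effect of the later times of its route. For Ccn1 the effect at 1 h exceeded the mean effect of the later times by 2.41 ± 0.35 after KCN (SE, limma, adjusted p = 1.62e-05) and by 2.16 ± 0.36 after HCN (adjusted p = 3.42e-05). These contrasts called 1.31% and 10.6% of all probe sets. For Ccn2 neither passed: the difference was 0.19 ± 0.24 after KCN (95% interval -0.29 to 0.67, adjusted p = 0.797) and -0.19 ± 0.24 after HCN (95% interval -0.68 to 0.29, adjusted p = 0.691). The mean of the later times joins Ccn2 effects that differ. After HCN they were 1.12 at 2 h and -0.21 at 24 h, and after KCN 1.31 at 2 h and -0.22 at 8 h. A rise and a return can cancel in this contrast, so it does not show that the Ccn2 effect was steady over time.

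**Figure D3:**
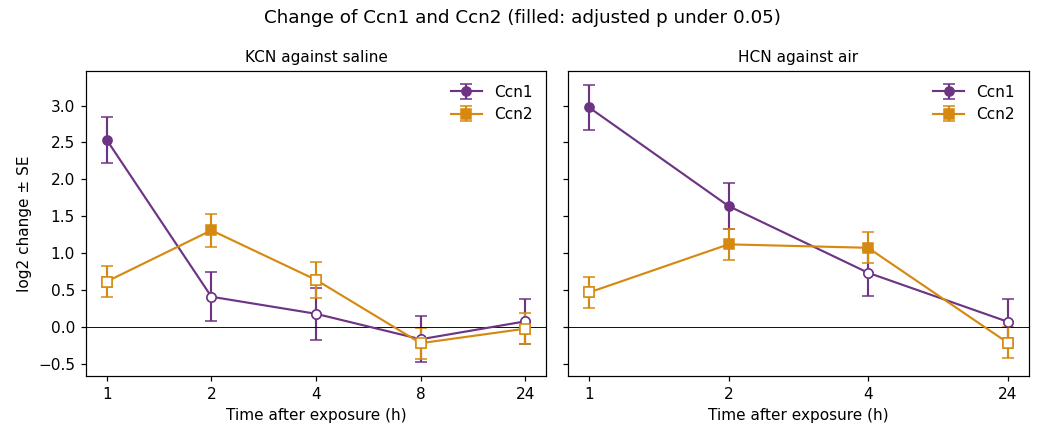
Change of Ccn1 (circles) and Ccn2 (squares) as log2 signal of the cyanide group minus its control, with SE, against hours after exposure (time points evenly spaced), for KCN on the left and HCN on the right; filled symbols have an adjusted p under 0.05. Ccn1 is highest at 1 h by both routes, at 2.53 and 2.97, and the filled Ccn2 points are at 2 h after KCN and at 2 and 4 h after HCN.

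No difference between the routes passed the test for either gene at the 4 shared times. The largest was that of Ccn1 at 2 h, where the effect of HCN exceeded that of KCN by 1.23 ± 0.45 (SE, limma, 95% interval 0.32 to 2.14, adjusted p = 0.0951). Without the first KCN array of 2 h it was 1.46 and passed (adjusted p = 0.0467). At the other times the Ccn1 difference was 0.44 at 1 h (95% interval -0.43 to 1.31), 0.56 at 4 h (95% interval -0.39 to 1.50) and -0.00 at 24 h (95% interval -0.88 to 0.87). The second Ccn1 probe set gave larger differences, 0.90 at 1 h (95% interval 0.02 to 1.78, adjusted p = 0.557) and 0.90 at 4 h (95% interval -0.05 to 1.85, adjusted p = 0.338), and a smaller one at 2 h, 0.88 (adjusted p = 0.259). For Ccn2 the 4 differences lay between -0.19 and 0.43, with adjusted p from 0.539 to 0.937. The share of all probe sets in which the routes differed was 0.198% at 1 h, then 5.74% at 2 h and 1.87% at 4 h, and 18.8% at 24 h. Dose, route and time of uptake differ between the experiments, so a difference of routes is not a comparison at matched doses.

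Whether Ccn1 and Ccn2 changed by different amounts was examined within each array, from the Ccn1 signal minus the Ccn2 signal. At 1 h the Ccn1 change exceeded the Ccn2 change by 1.92 after KCN and by 2.50 after HCN, and in both comparisons the cyanide arrays did not overlap the controls. The two-sided exact permutation p was 0.0286 in each, the smallest that 4 against 4 arrays allow, and 0.129 after adjustment over the 9 comparisons. At 2 h after KCN the sign was the other way, with Ccn1 changing by 0.90 less than Ccn2 (exact permutation p = 0.0571, the smallest that 4 against 3 arrays allow, adjusted p = 0.171). After HCN the difference at 2 h was 0.52 and at 4 h -0.34, with exact permutation p of 0.114 and 0.257. No comparison of the 9 passed after adjustment, but the number of arrays made this nearly certain beforehand. An exact p of 0.0286 gives an adjusted p under 0.05 only if most of the 9 comparisons reach it. The adjusted test therefore cannot show that the genes changed alike. Over single arrays the genes correlated at 0.586 in the injection experiment and 0.66 in the inhalation experiment, which includes the exposure common to the arrays of a group.

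Airway transcripts were high in some hearts. At 1 h after KCN, 2 of 4 airway and lung markers rose, Scgb1a1 by 8.50 and Bpifa1 by 8.34, and the summed linear signal of the list was 4554 to 7609 on the KCN arrays against 28.6 to 31.0 on the saline arrays. This comparison called 4.09% of all probe sets, and the other 8 comparisons called 0.336% to 25.3%. No member of the airway and lung list was called in those 8. Its sum varied widely within their groups, for example from 29.3 to 9737 after HCN at 1 h. With the airway mean as a covariate, the Ccn1 change after HCN was 2.97 at 1 h and 1.63 at 2 h, and both passed the test. That at 1 h after KCN passed as well, but there the airway mean did not overlap between the groups and cannot be separated from KCN. The Ccn2 changes with it were 1.25 at 2 h after KCN, and 1.13 at both 2 h and 4 h after HCN.

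Of 3 adipocyte markers, 0 were called in the 9 comparisons, which called 0.336% to 25.3% of all probe sets. The median change of these markers after KCN was nevertheless 1.88 at 1 h, then 2.15 at 2 h and 2.46 at 4 h. Adipoq, which encodes adiponectin, read 8.88 to 10.69 at 1 h after KCN and 6.11 to 8.19 after saline, so that these groups did not overlap (2.27 ± 0.85, SE, limma, adjusted p = 0.116). After HCN the list's median change was -0.05 at 1 h, 0.07 at 2 h and -0.70 at 4 h.

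Of 6 markers of fibroblasts, the cells that lay down matrix, 0 were called at 1 h by either route. Of all probe sets, 4.09% were called at 1 h after KCN and 2.68% at 1 h after HCN. Where Ccn2 was called, Tcf21 fell each time, by 1.06 at 2 h after KCN and by 1.21 at 2 h and 1.23 at 4 h after HCN. Pdgfra rose by 0.66 at 2 h and by 0.86 at 4 h after HCN, and the other fibroblast markers were not called in these comparisons. They called 6.59% of all probe sets at 2 h after KCN, 25.3% at 2 h after HCN and 7.35% at 4 h after HCN. The share of fibroblast markers called at 2 h after HCN was near that of all probe sets. At 24 h after HCN, where Ccn2 was not called, 1 of the 6 markers fell, with 14.3% of all probe sets called.

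Of 6 endothelial markers, Emcn rose at 1 h by both routes, by 0.43 after KCN and 0.45 after HCN. At 1 h 4.09% of all probe sets were called after KCN and 2.68% after HCN. At 2 h 2 endothelial markers fell after KCN and 4 after HCN, where 6.59% and 25.3% of all probe sets were called, and 1 fell at 4 h after HCN, with 7.35% called. Of 7 macrophage markers 1 rose at 1 h after KCN and 0 were called at 1 h after HCN or at 2 h after KCN. At 2 h after HCN 2 rose and 2 fell, and at 4 h after HCN 1 rose. The part of these cells in the Ccn1 and Ccn2 values was not tested.

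The actin 3′ to 5′ ratio also moved with the HCN comparison of 2 h, where on the log2 scale it was 1.22 ± 0.61 against 0.45 ± 0.14 in air (SD, n = 4 each). At 24 h it did not overlap between cyanide and control by either route. It ran from 0.64 to 1.25 after HCN and from 0.32 to 0.41 in air, and from 0.34 to 0.61 after KCN and from 0.78 to 1.00 after saline. With the ratio as a covariate Ccn1 changed by 2.94 at 1 h and 1.94 at 2 h after HCN. Ccn2 then changed by 1.30 at 2 h after KCN, by 0.90 at 2 h after HCN (limma, adjusted p = 0.019) and by 1.07 at 4 h after HCN, and all of these passed. Without the 2 HCN arrays of highest ratio the 2 h changes were 1.56 for Ccn1 (adjusted p = 0.0049) and 0.99 for Ccn2 (adjusted p = 0.00823). At 2 h, however, the ratio ran from 0.645 to 1.95 after HCN and from 0.317 to 0.652 in air, so these groups barely overlapped. The 2 HCN arrays kept, at 0.794 and 0.645, lay above the air range or at its upper end. Neither the covariate nor the left-out arrays can therefore separate RNA quality from HCN at 2 h. The covariate also moved the number of called probe sets. The number fell from 6764 to 3018 at 2 h and from 3835 to 733 at 24 h after HCN, and from 5043 to 809 for the route difference of 24 h. In other comparisons it rose, for example from 1764 to 2155 at 2 h after KCN. The shares of called probe sets given in the text are without the covariate.

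The genes around Ccn1 and Ccn2 in their pathways were counted from lists, each gene by its probe set of highest mean. None of the 3 other CCN genes tested, Ccn3, Ccn4 and Ccn5, was called in any of the 9 comparisons, which called 0.336% to 25.3% of all probe sets. The largest of their changes at 1 h was that of Ccn5, at 0.56 ± 0.27 after KCN (SE, limma, adjusted p = 0.251) and 0.34 ± 0.27 after HCN (adjusted p = 0.611). Ccn6 did not pass the filter on low signals. The median change over all probe sets lay between -0.04 and 0.04 in the 9 comparisons.

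Among 18 targets of SRF and its MRTF co-activators, 5 rose and 0 fell at 1 h after KCN, with a median over the list of 0.24 and 4.09% of all probe sets called. All 5 are immediate early genes: Fos by 2.66, Egr1 by 2.46, Egr2 by 2.39, Fosb by 1.82 and Ier2 by 1.00. At 1 h after HCN 7 of 18 rose and 0 fell, with a median of 0.14 and 2.68% of all probe sets called: the same 5 genes by 4.79, 4.73, 3.30, 4.15 and 2.49 in that order, and Mcl1, a survival gene, by 0.49 and Egr3 by 0.43. At 2 h after HCN, with 25.3% called, 5 rose, Egr1, Fos, Fosb, Egr2 and Mcl1, and at 2 h after KCN 0 rose and Zyx, which encodes a focal adhesion protein, fell by 0.76. Muscle and cytoskeletal targets on the list were not called at 1 h: Acta2, smooth muscle actin, was -0.51 ± 0.19 after KCN and 0.06 ± 0.19 after HCN, and Vcl, vinculin, was -0.11 and -0.02.

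Of the 4 SRF and MRTF factors, Mrtfb fell at 1 h by 0.42 after KCN and by 0.45 after HCN (limma, adjusted p = 0.0237 and 0.0152). These comparisons called 4.09% and 2.68% of all probe sets. Srf itself differed by 0.17 ± 0.16 and 0.18 ± 0.16 at 1 h, which did not pass (adjusted p = 0.625 and 0.674). Mrtfa fell by 0.75 at 2 h after KCN and Myocd rose by 0.96 (adjusted p = 0.0488), a call that was lost without the filter, without the intensity trend and with each array centred on its median. Mrtfb rose by 0.49 at 4 h after HCN. Of all probe sets, 6.59% were called at 2 h after KCN and 7.35% at 4 h after HCN.

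The 18 other targets of YAP and TEAD tested did not rise with Ccn1 at 1 h: 0 rose and 1 fell by each route, Arhgef17 by 0.50 after KCN and Amotl1 by 0.49 after HCN. Over all probe sets 4.09% and 2.68% were called in these comparisons. The median change of the list was 0.02 and -0.08. At 2 h after KCN 2 of 18 rose, where 6.59% of probe sets were called. In the HCN comparison of that time 2 rose and 2 fell, a share of calls near the 25.3% of all probe sets, and at 4 h after HCN 2 rose and 1 fell, with 7.35% called. Nt5e, which encodes the CD73 enzyme that makes adenosine, was in each of these, at 0.91 ± 0.23 after KCN and 0.60 ± 0.21 after HCN, and reached 1.41 ± 0.21 at 4 h after HCN (SE, limma, adjusted p = 4.17e-06). Amotl2, a binding partner of YAP, rose by 0.79 at 4 h after HCN. Ankrd1, a cardiac stretch-response gene on this list, fell by 0.37 at 2 h after HCN. Ajuba, which encodes a LIM protein of cell junctions, had the lowest adjusted p of the list at 2 h after HCN, where it fell by 0.91 (adjusted p = 1.46e-05), and it fell by 0.50 at 4 h. Of the 10 YAP and TEAD pathway factors, Yap1 fell by 0.38 ± 0.09 at 1 h after KCN (adjusted p = 0.00725) and 0 were called at 1 h after HCN.

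**Figure D4:**
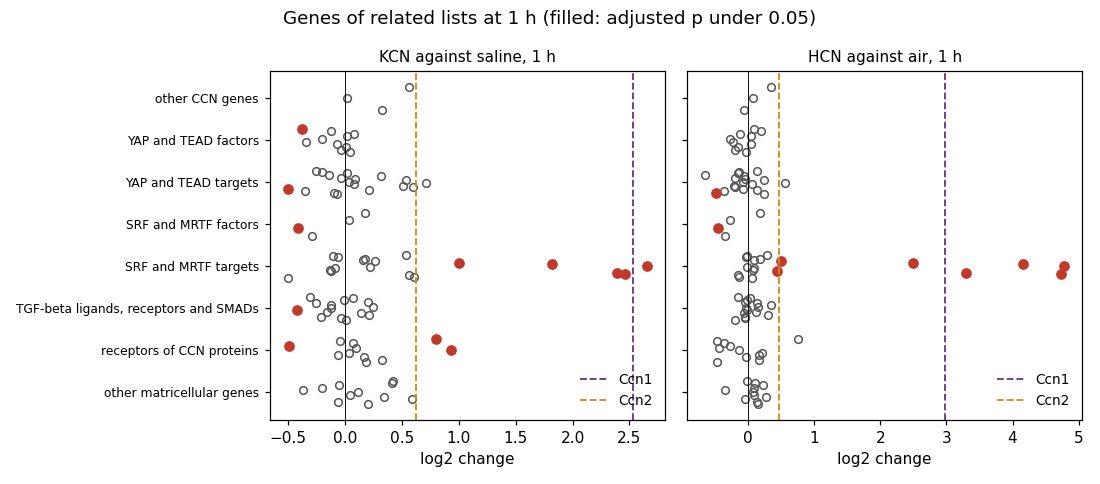
Change at 1 h of every tested gene of 8 related lists, as log2 signal of the cyanide group minus its control, for KCN on the left and HCN on the right; each point is a gene, filled where its adjusted p is under 0.05, and dashed lines mark Ccn1 and Ccn2. The points beyond the Ccn2 line that are filled by both routes are the immediate early genes among the SRF and MRTF targets, of which Fos stands at 2.66 and 4.79.

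TGF-beta ligands, receptors and SMADs were counted because Ccn2 is a target of that pathway. Of 15 tested, 0 rose and 1 fell at 1 h after KCN, the signal transducer Smad4 by 0.42, and 0 were called at 1 h after HCN. These shares are near those of all probe sets, 4.09% and 2.68%. In the KCN comparison of 2 h, where Ccn2 was called, 0 of the 15 rose and 4 fell, with 6.59% of all probe sets called. Among those that fell were the ligand Tgfb3 by 0.60 and the inhibitory Smad6 by 0.59. In the HCN comparison of 2 h, where Ccn2 was also called, Smad4 rose by 0.42 and Smad2 and Ski fell by 0.37 and 0.30, while 25.3% of all probe sets were called. At 4 h after HCN, with 7.35% called, 1 rose, the co-receptor Tgfbr3 by 0.62, and 3 fell, Tgfb3 by 0.54, Smad6 by 0.49 and the inhibitory Smad7 by 0.52. Tgfb1 was called once, higher by 0.86 at 24 h after KCN, where Ccn2 differed by -0.02.

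Of 11 receptors of CCN proteins, Sdc4, the heparan sulphate proteoglycan syndecan 4, was called most often. It rose by 0.80 at 1 h and by 1.64 at 2 h after KCN, and by 1.14 at 2 h and 1.16 at 4 h after HCN. At 1 h after KCN 3 of the 11 were called, where 4.09% of all probe sets were: beside Sdc4, Itgb2 rose by 0.93 and Itgb5 fell by 0.50. At 1 h after HCN 0 of the 11 were called, where 2.68% of all probe sets were. Itgav and Itgb1, which encode integrin subunits that bind both CCN proteins, were not called at 1 h: Itgav differed by -0.07 after KCN and 0.16 after HCN, and Itgb1 by 0.03 and 0.21. The 1 h calls of Sdc4 and Itgb2 were lost when no filter on low signals was used.

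Of 11 other matricellular genes, 0 were called at 1 h or 4 h by either route. Of all probe sets, 4.09% were called at 1 h and 2.26% at 4 h after KCN, and 2.68% and 7.35% after HCN. Thbs1 and Spp1, also matricellular genes of the list, have no probe set in the annotation used, so they were not tested. At 24 h after KCN 3 rose, Tnxb by 1.22, Fbln1 by 0.88 and Sparcl1 by 0.45, when neither Ccn1 nor Ccn2 was called and 11.9% of all probe sets were. Fbln1, which encodes the matrix protein fibulin 1, fell by 0.90 at 2 h and by 1.13 at 24 h after HCN.

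The genes whose signals followed Ccn1 most closely over the 69 arrays, each route centred on its own mean, were Egr2 (r = 0.854), Gadd45g (0.849), Egr1 (0.846), Cxcl1 (0.835) and Fosb (0.823). Ccn2 ranked 75 in that order, with r = 0.624. These correlations are descriptions, since the arrays share exposures and times. Cxcl1, a neutrophil-attracting chemokine, differed by 1.35 at 1 h after KCN and 4.53 at 1 h after HCN, and Gadd45g, a stress-response gene, by 1.96 and 2.25.

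Ccn2 was followed most closely by Maff (r = 0.892), Rgcc (0.891), Slc10a6 (0.891), Depp1 (0.875) and Atf3 (0.87), with Ccn1 at rank 177. Rgcc, a regulator of the cell cycle, differed by 0.56 at 1 h and 1.51 at 2 h after KCN, and by 1.32 at 2 h and 1.21 at 4 h after HCN. Slc10a6, a steroid sulphate transporter gene, was at 0.09 and 1.77 at 1 h and 2 h after KCN and at 2.04 at 4 h after HCN. Atf3, a stress-induced transcription factor, was already high at 1 h, at 3.30 after KCN and 4.32 after HCN, and was still at 3.88 at 4 h after HCN. Of the 5 genes nearest to Ccn1 and the 5 nearest to Ccn2, none was on both lists, but longer lists were not compared and the overlap was not tested.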

How the data were processed

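RNA from whole hearts was extracted with an RNeasy Plus kit and 100 ng per sample was labelled with an Affymetrix 3′ IVT PLUS kit, per the labels' protocols. The deposited matrix holds log2 signals per probe set, which the authors summarised and normalized. MAS5 is named, without a version or role, per the submitters' processing notes. The log2 scale was inferred from the range of the values, and no source used here names scan batches. Probe sets were named from GEO's platform annotation, of which 28898 of 45141 carry a single symbol, and those with several symbols were not named.

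Computed here, in R 4.3.3 with limma 3.58.1 and data.table (version 1.17.8): 26755 probe sets with at least 1 group mean above 3.23, the median of all group means, were fitted with a mean for each of 18 groups (51 residual degrees of freedom, eBayes with an intensity trend). The 104 controls were left out. Tests were two-sided, adjusted by Benjamini-Hochberg within each contrast over all tested probe sets and called at an adjusted p of 0.05. Exact permutation tests used scipy 1.17.1. The fit was tested on simulated data. Named from each list were up to 4 called members of lowest p per contrast and its factors or receptors; Fos, Mcl1, Egr3, Acta2, Vcl and Adipoq, in part outside this rule, were chosen after their values were seen. The 5 genes of highest correlation with each member were also named. The members and the lists were chosen with earlier results of these data known. Upstream sequence came from RefSeq, where 1 of the 2 genes was matched. Alternatives were other normalizations, filters, fits, covariates and probe sets, and leaving out each array. The choice of the second Ccn1 probe set as an alternative was made after seeing the data.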

Additional observations from a re-analysis of the deposited data

Results flagged for a closer look

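In 4 of 45 sets of 4 arrays, 1 array stood apart from the other three by Dixon's test, which chance does in about 1 of 20 sets. Ccn1 was lowest on the fourth HCN array of 2 h, at 8.97 against 9.36 to 9.44 on the others. Ccn2 was lowest on the third HCN array of 1 h, at 11.47 against 11.74 to 11.79. The second Ccn1 probe set was lowest on the first saline array of 24 h, at 6.38 against 6.89 to 6.98, and highest on the third HCN array of 1 h, at 10.88 against 10.71 to 10.73.

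The cyanide effect on Ccn1 differed between times by a test of the difference itself. The 1 h effect exceeded the mean of the later effects by 2.41 after KCN and 2.16 after HCN, and on the second probe set by 2.36 and 2.71.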

How the results depend on the processing

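The Ccn1 calls at 1 h after KCN and at 1 h and 2 h after HCN, and the Ccn2 calls at 2 h after KCN and at 2 h and 4 h after HCN, kept their direction and passed under every alternative that was run for them, including each left-out array. Ccn2 at 1 h after HCN, at 0.47, gained a call when only the groups compared were fitted (limma, adjusted p = 0.0434). Leaving out 1 array gave 0.48 to 0.78 for Ccn2 at 1 h after KCN, with a call gained without the third saline array. It gave 0.93 to 1.46 for the route difference of Ccn1 at 2 h, with a call gained without the first KCN array. With the replicate block the changes at 2 h after KCN were 0.37 for Ccn1 and 1.33 for Ccn2, and it changed no call of either gene. The titles do not say whether same-numbered arrays were handled together. Of 34 such pairs, 9 correlated above 0.1, with values from -0.142 to 0.318, and in 0 of 9 comparisons did all pairs. Pairs of different numbers were not compared, so shared handling cannot be told from these values. Of 30 differences of the 2 genes, 6 changed sign under some alternative, and 0 of these were called. Over all alternatives Ccn1 ran from -0.18 to 0.32 at 4 h, from -0.43 to 0.09 at 8 h and from -0.10 to 0.48 at 24 h after KCN, and from -0.09 to 0.30 at 24 h after HCN. Its route difference at 24 h ran from -0.37 to 0.38, and Ccn2 at 24 h after KCN from -0.08 to 0.10. The fit for each route alone gives no route difference. Quantile normalization over all arrays moved the share of higher calls from 53.7% to 38.2% at 4 h after KCN, from 34.8% to 46.0% at 2 h after HCN and from 39.0% to 51.7% at 4 h after HCN, and centring each array on its median moved it from 41.1% to 28.4% at 8 h after KCN. In the lists, small counts of higher genes moved by 1 or 2 genes with the filter, the scaling or the trend. The cause of these changes was not tested.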
